A study of Brassica rapa subsp. pekinensis with 8 samples.

Results

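The antioxidant enzyme genes described here are the genes of Chinese cabbage, Brassica rapa, whose deposited Arabidopsis description names a superoxide dismutase, catalase, ascorbate peroxidase, monodehydroascorbate reductase, dehydroascorbate reductase or glutathione reductase. They number 41 of the 38008 genes in the count table. The 41 genes match 25 Arabidopsis loci and comprise 12 superoxide dismutase genes, 8 catalase genes, 10 ascorbate peroxidase genes, 4 monodehydroascorbate reductase genes, 5 dehydroascorbate reductase genes and 2 glutathione reductase genes. The choice rests on the annotation text alone and used no measured value. It leaves out 2 genes of the glutathione reductase GR1 and 2 of the monodehydroascorbate reductase MDAR2, whose descriptions are worded differently.

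Superoxide dismutases turn superoxide, formed when electrons leak to oxygen in chloroplasts and mitochondria, into hydrogen peroxide. Catalases break hydrogen peroxide down inside peroxisomes, where photorespiration releases it, while ascorbate peroxidases reduce it to water with ascorbate as the electron donor. Monodehydroascorbate reductase and dehydroascorbate reductase return the oxidised ascorbate to its reduced form, and glutathione reductase regenerates the glutathione that dehydroascorbate reductase consumes.

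RNA was sequenced from shoots (the labels say leaf) of the late-bolting inbred line 50 and the early-bolting inbred line 4004, each before (day 0) and after (day 35) vernalization in a cold room. Every sample pooled several plants. The libraries used were 3 of line 50 at each day, numbered 1 to 3, and 1 of line 4004 at each day, numbered 3. Days in the cold room were shorter and plants at day 35 were older, with no warm-grown control of their age among these libraries, so cold, day length and age cannot be told apart.

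Library totals ran from 18287387 to 27135881 counts. Replicate 3 of line 50 stood apart from replicates 1 and 2 at both days: its top 10 genes took at least 12.8% of all counts, against 6.65% to 8.56% in the other line 50 libraries. In the samples, leaf marker genes were abundant, with summed normalized read counts over 9 genes of 378210 to 742613 at day 0 and 316127 to 639772 at day 35 in line 50. In line 4004 these sums were 298446 and 404110. The summed level of 2 root hair genes did not pass 5 in any library. The summed level of 8 senescence marker genes was 262 to 590 at day 0 and 2553 to 5497 at day 35 in line 50, and 1845 and 5034 in line 4004, and 4 of the 7 tested rose in line 50, where 2.23% of all genes rose. Of the 3 tested shoot meristem markers 2 rose in line 50, while WUS and CLV3 had a raw value of at most 3 in every library. The summed level of 4 dividing-cell markers was 1575 to 1748 at day 0 and 822 to 1847 at day 35 in line 50, and 655 and 866 in line 4004. All 4 had negative log2 fold changes for line 4004 against line 50 at day 0 (median -1.44, 1 called lower, against 0.292% of all genes), and so did all 9 leaf markers (median -0.99, 0 called). The part of any of these marker lists in the results on antioxidant genes was not tested. In tissue samples like these, fewer cells of a type and less RNA per cell cannot be told apart.

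A read count of a gene was called different when its Benjamini-Hochberg adjusted p over all 31191 genes tested with edgeR was under 0.05 and its log2 fold change was at least 1 in size. Of the 41 antioxidant genes 39 entered the test. The genes of MSD2 (Bra007239) and APX2 (Bra034076) did not, since their normalized read counts were at most 8 in all libraries. Normalized read counts are the raw counts divided by 1 size factor per library and are given below as levels.

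**Figure D1:**
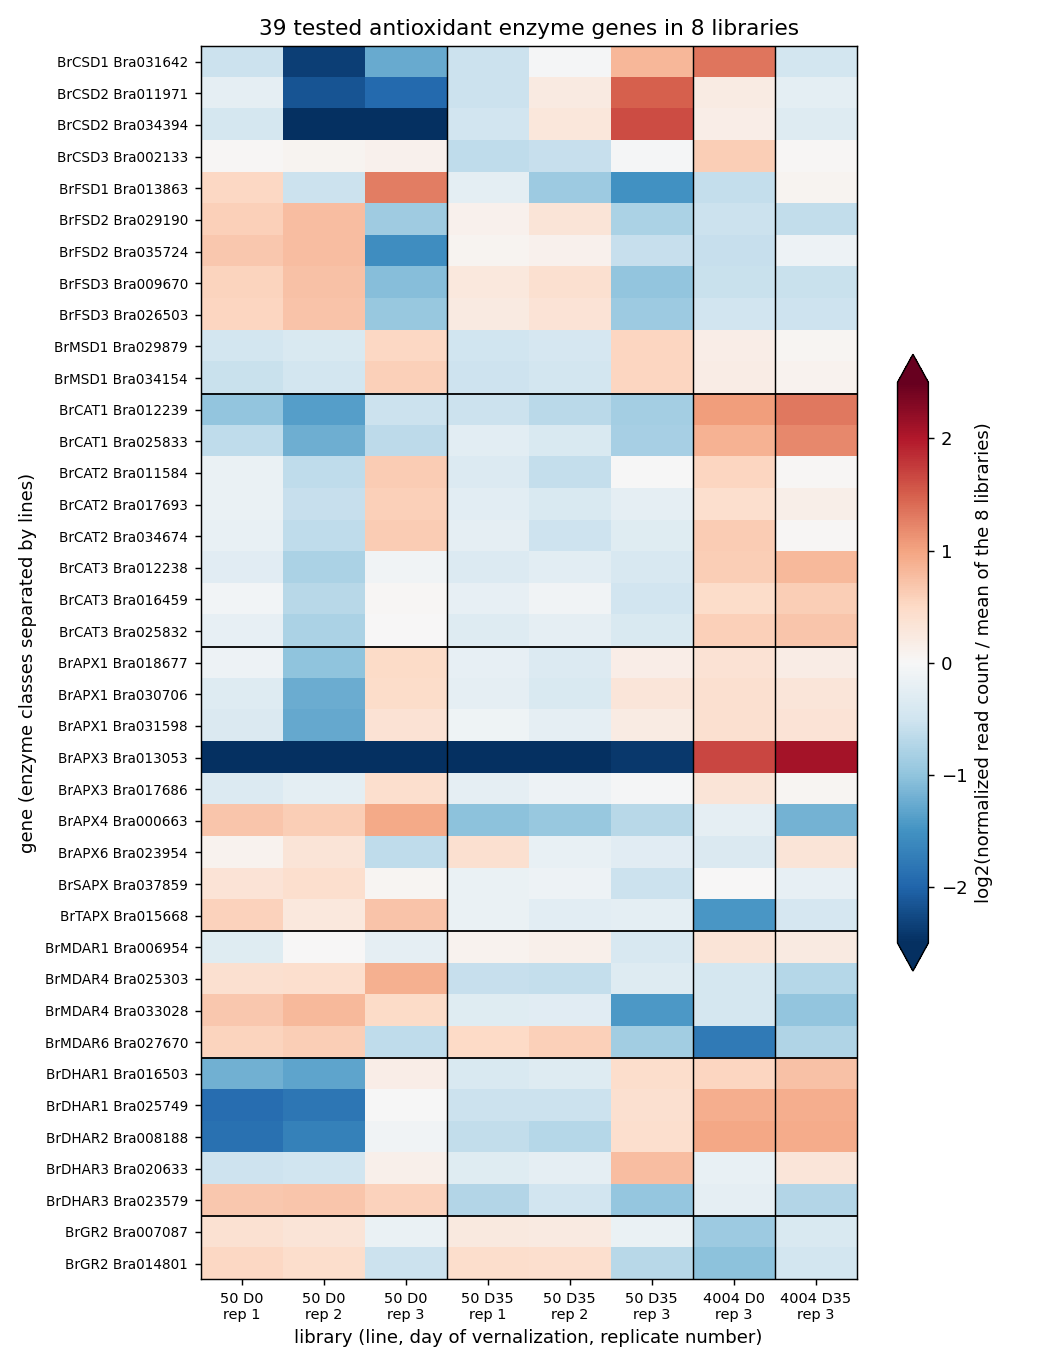
Levels of the 39 tested antioxidant enzyme genes in the 8 libraries, as log2 of the normalized read count over the gene's mean across libraries (colour scale, clipped at its ends). Rows are genes grouped by enzyme class and columns are libraries. BrAPX3 Bra013053 is dark blue in all line 50 libraries and red in both line 4004 libraries, and BrAPX4 Bra000663 changes colour between the days of line 50.

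In line 50, 2 of the 39 tested genes fell between day 0 and day 35 of vernalization and 0 rose. The genes that fell encode BrAPX4, a thylakoid lumen protein related to ascorbate peroxidases, and 1 copy of the chloroplast dehydroascorbate reductase BrDHAR3. Among all genes tested, 1.69% fell and 2.23% rose. At an unadjusted p under 0.05, edgeR gave 3 antioxidant genes higher and 7 lower, against 3261 and 3121 of all 31191 genes tested. The median log2 fold change of the 39 genes was -0.04, against 0.01 over all genes, with a range of -1.63 to 2.39. When same-numbered libraries were treated as pairs, 1 gene rose (7.94% of all genes did) and 4 fell (7.69%), and DESeq2 also gave 1 and 4 (5.08% and 4.4%). Neither call of the unpaired test survived the removal of replicate 1 or of replicate 2, which left 0 called, and without replicate 3 there were 2 higher and 3 lower. Shares of all genes are not given for fits with libraries left out, so such counts cannot be read against them. No gene was higher in all day 35 libraries than in all day 0 libraries, against 12.4% of all genes. In 7 of the 39 genes (17.9%, against 12.9% of all genes) every day 35 library of line 50 was below every day 0 library.

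**Figure D2:**
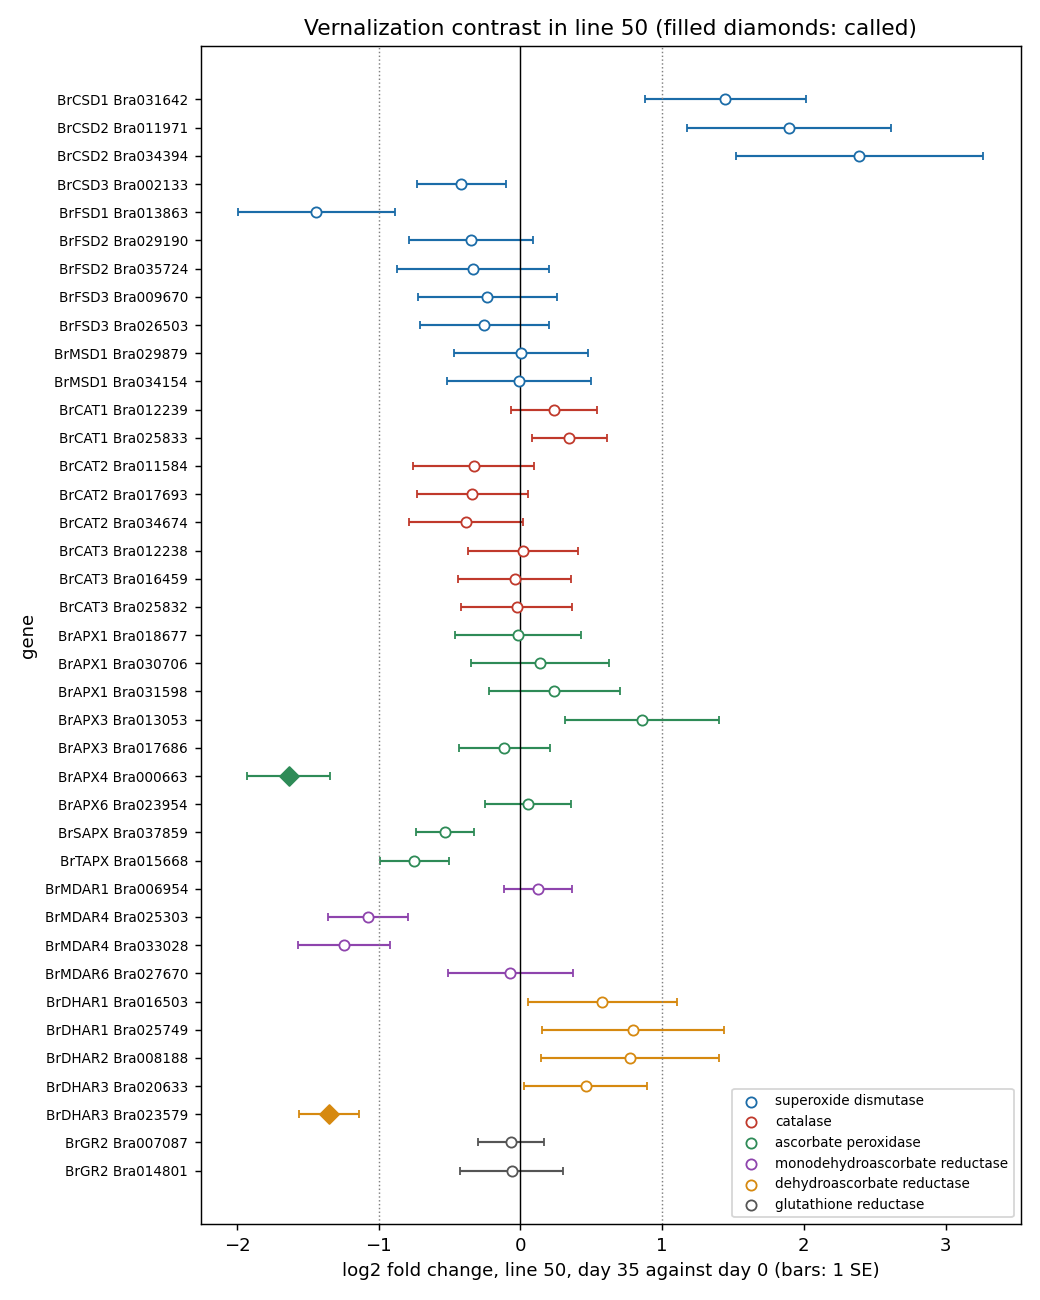
Log2 fold change of each tested antioxidant enzyme gene between day 35 and day 0 in line 50, from edgeR, with bars of 1 SE and colours for the enzyme class. Dotted lines mark a log2 fold change of 1 in size, and the filled diamonds are the called genes, BrAPX4 at -1.63 and BrDHAR3 Bra023579 at -1.35.

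None of the 11 tested superoxide dismutase genes was called across vernalization in line 50, with or without pairing, and several spread over 3-fold between replicates of a day. The cytosolic copper/zinc enzyme gene BrCSD1 (Bra031642) had 1720, 489 and 1043 normalized read counts in replicates 1, 2 and 3 at day 0 and 1710, 2449 and 4403 at day 35. Replicate 1 was nearly level between the days while replicates 2 and 3 were higher at day 35, and the groups overlapped. Its log2 fold change was 1.45 ± 0.57 (SE) with an edgeR adjusted p of 0.213. The chloroplast copper/zinc gene BrCSD2 Bra034394 had the largest log2 fold change of the 39 genes, from 4066, 660 and 912 at day 0 to 3939, 6685 and 17110 at day 35. It showed the same arrangement, with replicate 1 level and replicates 2 and 3 higher at day 35. The log2 fold change was 2.39 ± 0.87 (edgeR adjusted p = 0.185), and DESeq2 called it (adjusted p = 0.0265). The second copy of BrCSD2, Bra011971, gave 1242, 326 and 378 against 1012, 1715 and 4094, a log2 fold change of 1.90 ± 0.72 that did not pass (edgeR adjusted p = 0.202).

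The iron enzyme gene BrFSD1 (Bra013863) ran the other way. It had 11519, 5555 and 19665 normalized read counts at day 0 and 6804, 4318 and 2840 at day 35. Each replicate was lower at day 35 than its same-numbered library, but the groups overlapped and the log2 fold change of -1.44 ± 0.55 did not pass (edgeR adjusted p = 0.205). The genes of the chloroplast iron enzymes BrFSD2 and BrFSD3 followed the replicate rather than the day. BrFSD3 Bra009670 had 846, 952 and 274 at day 0 and 692, 754 and 289 at day 35. Replicate 3 was the low library at both days. The mitochondrial manganese enzyme gene BrMSD1 Bra034154 had the reverse arrangement, 2346, 2499 and 5243 at day 0 and 2398, 2522 and 5018 at day 35. In 6 antioxidant genes (15.4%, against 12% of all genes) replicate 3 was over 1.5 times above replicates 1 and 2 at both days, and in 6 others (15.4%, against 21%) it was as far below.

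**Figure D3:**
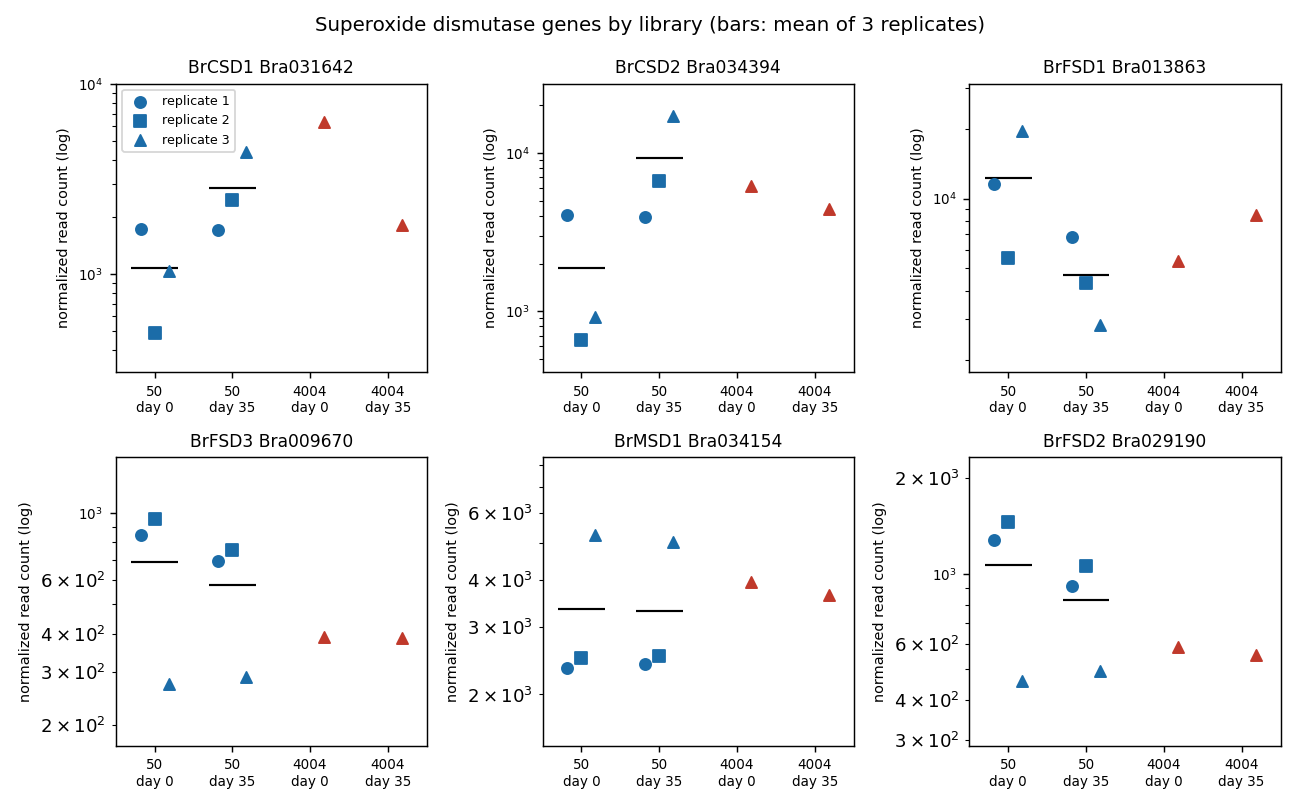
Normalized read counts of 6 superoxide dismutase genes in each library, on a log axis, with the libraries of line 50 in blue and line 4004 in red and a symbol for each replicate number. Bars are the means of the 3 line 50 replicates. BrCSD1 and BrCSD2 spread over several-fold within a day, and BrFSD3, BrMSD1 and BrFSD2 separate replicate 3 from replicates 1 and 2.

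None of the 8 catalase genes was called across vernalization in line 50 (log2 fold changes of -0.39 to 0.35). The leading BrCAT3 copy by count, Bra016459, had 58132, 37662 and 62477 normalized read counts at day 0 and 53004, 57267 and 43965 at day 35. Its groups overlapped (log2 fold change -0.04 ± 0.40, edgeR adjusted p = 0.974). BrCAT2, the main leaf catalase in Arabidopsis, had its largest log2 fold change in Bra034674, with 3119, 2267 and 5477 at day 0 and 3049, 2459 and 2873 at day 35 (-0.39 ± 0.40, edgeR adjusted p = 0.673). Catalases together took 0.424% to 0.692% of all counts in the line 50 libraries.

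The ascorbate peroxidase class held the largest fall. BrAPX4 (Bra000663) had 8939, 8456 and 10723 normalized read counts at day 0, a mean of 9373 ± 1194 (SD, n = 3), and 2702, 2873 and 3404 at day 35, a mean of 2993 ± 366. The days did not overlap. Its log2 fold change was -1.63 ± 0.29 (edgeR adjusted p = 0.0341, and 1.21e-05 to 0.566 over the alternatives). Its Arabidopsis counterpart, also called TL29, lacks the activity its name implies. The call was lost without replicate 1 (edgeR adjusted p = 0.566) or replicate 2 (0.529) at both days and kept without replicate 3 (0.000232). It was also lost without any single day 0 library (0.142, 0.128 and 0.0514) and without replicate 1 or 2 at day 35 (0.168 and 0.171).

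The chloroplast ascorbate peroxidase genes also lay lower at day 35, without passing. The thylakoid-bound enzyme gene BrTAPX (Bra015668) had 2530, 2031 and 2765 at day 0 and 1503, 1408 and 1432 at day 35. The days did not overlap, and the log2 fold change was -0.75 ± 0.24 (edgeR adjusted p = 0.145). The stromal BrSAPX (Bra037859), 1186, 1265 and 971 against 834, 867 and 644, also did not overlap between days (-0.53 ± 0.21, edgeR adjusted p = 0.208). The cytosolic BrAPX1 genes had overlapping days, Bra018677 for example with 3886, 2120 and 5872 at day 0 and 3652, 3326 and 4775 at day 35.

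Both genes of the peroxisomal membrane monodehydroascorbate reductase BrMDAR4 were lower at day 35 in every line 50 library. BrMDAR4 Bra025303 had 1497, 1511 and 2103 normalized read counts at day 0 and 763, 747 and 902 at day 35. Without pairing it missed the threshold (log2 fold change -1.08 ± 0.28, edgeR adjusted p = 0.087), and with pairing it passed (-1.05, adjusted p = 0.00754), as it did with unpaired DESeq2 (adjusted p = 0.0222). The second copy, Bra033028, had 324, 356 and 284 against 164, 167 and 75, with -1.25 ± 0.32 (edgeR adjusted p = 0.0861) unpaired and -1.28 (adjusted p = 0.0147) paired, and DESeq2 called it as well (adjusted p = 0.00829). BrMDAR1 (Bra006954), with 2546, 3153 and 2682 at day 0 and 3336, 3419 and 2367 at day 35, overlapped between days.

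Of the 2 copies of the chloroplast dehydroascorbate reductase BrDHAR3, 1 fell. BrDHAR3 Bra023579 had 1065, 1088 and 1001 normalized read counts at day 0, a mean of 1051 ± 45.1 (SD, n = 3), and 405, 484 and 342 at day 35, a mean of 410.3 ± 71.2. The days did not overlap. The log2 fold change was -1.35 ± 0.21 (edgeR adjusted p = 0.0239, and 9.99e-07 to 0.533 over the alternatives). The call was lost without replicate 1 (edgeR adjusted p = 0.533) or replicate 2 (0.458) at both days and kept without replicate 3 (0.000788). It was also lost without replicate 1 or 2 of day 0 alone (0.124 and 0.127) or of day 35 alone (0.133 and 0.103). The second copy of the same locus, BrDHAR3 Bra020633, had 2007, 2043 and 3171 at day 0 and 2345, 2471 and 4958 at day 35. Each of its libraries was higher at day 35 than the same-numbered library at day 0, with overlapping groups and a log2 fold change of 0.46 ± 0.43 (edgeR adjusted p = 0.632).

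In raw counts, Bra020633 was 1.89, 1.88 and 3.17 times Bra023579 in the day 0 libraries of line 50 and 5.79, 5.10 and 14.6 times at day 35. In line 4004 the ratio was 4.47 and 8.87. Over 19 such pairs of copies at 13 loci, the ratio within a library varied by a median of 1.37 times across the 8 libraries and by under 1.5 times in 12 pairs. The BrDHAR3 pair varied by 7.77 times. No source states how reads were shared between similar copies, which leaves the split between such copies uncertain.

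The cytosolic dehydroascorbate reductase BrDHAR1 Bra025749 had 721, 766 and 2675 at day 0 and 1855, 1851 and 3579 at day 35. Every same-numbered pair was higher at day 35, and replicate 3 at day 0 lay above replicates 1 and 2 at day 35. Unpaired, the log2 fold change was 0.80 ± 0.64 (edgeR adjusted p = 0.563), and paired it was 1.03 ± 0.23 (adjusted p = 0.0282). BrDHAR2 (Bra008188), also cytosolic, had 66, 75 and 227 at day 0 and 158, 146 and 324 at day 35, again with every pair higher and with overlapping groups (0.77 ± 0.63, edgeR adjusted p = 0.568). The glutathione reductase genes BrGR2, whose product serves chloroplasts and mitochondria, were near level. Bra007087 had 3521, 3393 and 2391 at day 0 and 3195, 3164 and 2407 at day 35 (-0.07 ± 0.23, edgeR adjusted p = 0.924).

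**Figure D4:**
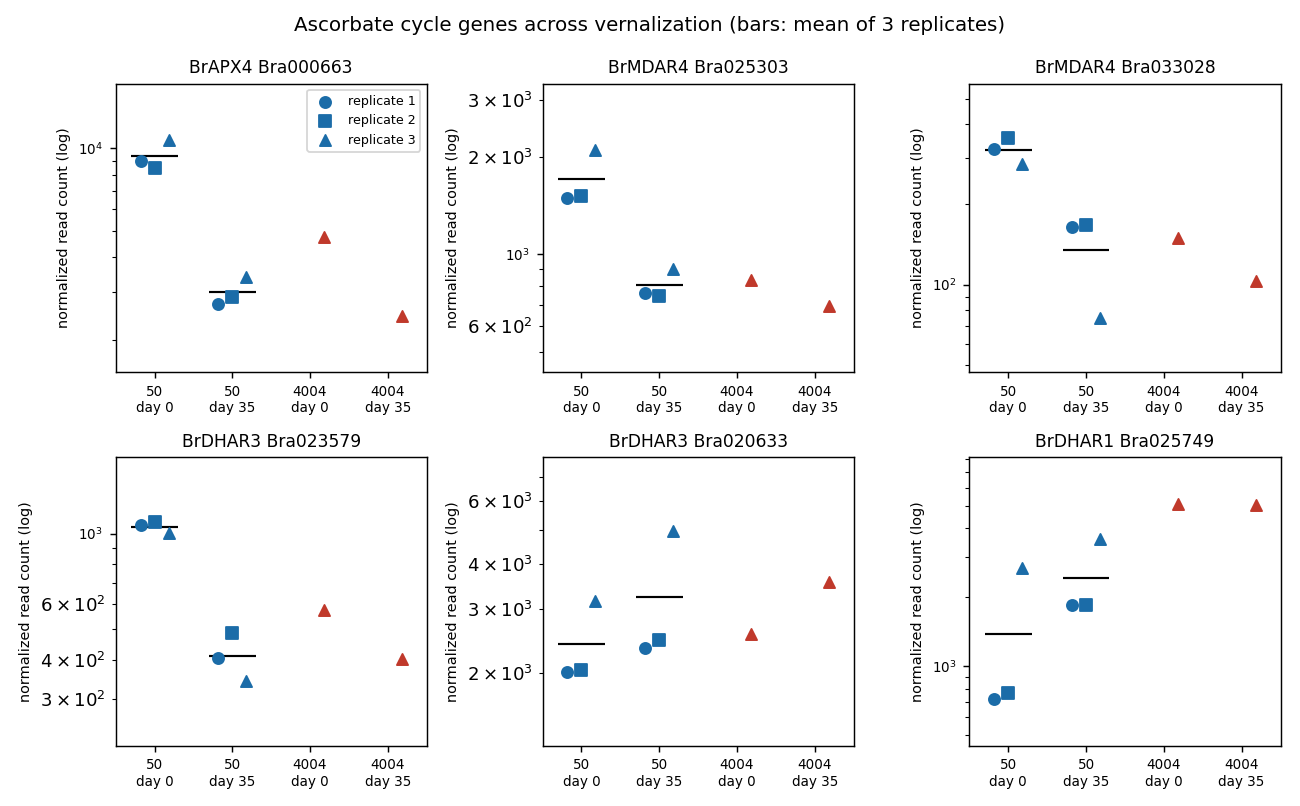
Normalized read counts of BrAPX4, both BrMDAR4 copies, both BrDHAR3 copies and BrDHAR1 Bra025749 in each library, on a log axis, with line 50 in blue, line 4004 in red and a symbol for each replicate number. Bars are the means of the 3 line 50 replicates. The day 35 points lie below all day 0 points of line 50 for BrAPX4, BrMDAR4 and BrDHAR3 Bra023579, and BrDHAR3 Bra020633 does not share that pattern.

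In line 4004 there is 1 library per day, so the days were compared by size, with no replicate check. Of the 31 antioxidant genes with a mean of at least 500 normalized read counts, 2 were at least 2-fold higher at day 35 and 1 was at least 2-fold lower. Among the 8276 genes of that level 4.06% were as much higher and 5.96% as much lower. BrTAPX had 614 at day 0 (exact Poisson 95% interval 567 to 664, counting error only) and 1259 at day 35 (1191 to 1330), 2.05-fold higher. BrMDAR6 (Bra027670), a reductase of chloroplasts and mitochondria, had 707 and 1444, 2.04-fold higher. BrCSD1 had 6297 (6143 to 6454) and 1821 (1739 to 1905), 3.46-fold lower. Scaled by library totals, which moved the median log2 ratio of all genes from 0.09 to -0.06, 0 genes were 2-fold higher (2.73% of all genes) and 2 were lower (7.55%), BrCSD1 and BrAPX4. At a mean of at least 50, 39 genes gave the same 2 and 1 (4.95% and 7.4% of all genes).

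BrAPX4 had 4744 at day 0 and 2448 at day 35 in line 4004, 1.94-fold lower. BrDHAR3 Bra023579 had 572 and 403, and BrMDAR4 Bra025303 had 833 and 694. These genes were lower at day 35 in line 4004 as in each pair of line 50. BrTAPX and BrFSD1 (5370 and 8513) were higher at day 35 in line 4004 and lower in each pair of line 50. Of the 39 genes, 6 were lower in all 3 pairs and in line 4004 (15.4%, against 23.4% of all genes) and 4 were lower in all 3 pairs and higher in line 4004 (10.3%, against 6.21%). A further 3 were higher in all 3 pairs and in line 4004 (7.69%, against 20.8%), and 2 were higher in all 3 pairs and lower in line 4004 (5.13%, against 5.31%). The difference between the responses of the lines was tested, and edgeR called 0 of the 39 genes (0 of all genes). At an unadjusted p under 0.05 there was 1 gene with a higher and 1 with a lower response in line 4004, BrTAPX (difference of log2 fold changes 1.77 ± 0.49) and BrCSD1 (-3.25 ± 1.16). Of all 31191 genes, 299 had a higher and 657 a lower response at that level. DESeq2 (0.0321% and 0.189% of all genes higher and lower) and the paired fit also called 0 of the 39. Without replicate 3 of line 50, 2 genes were called in each direction, with no share of all genes to set beside them.

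Before vernalization, 1 of the 39 genes was called between the lines, a BrAPX3 copy higher in line 4004, and 0 were lower. Of all genes 1.2% were higher and 0.292% lower. These comparisons set 1 library of line 4004 against 3 of line 50, use the same line 50 day 0 libraries as the vernalization comparison, and take their spread from line 50 alone. At an unadjusted p under 0.05, edgeR gave 4 antioxidant genes higher and 7 lower in line 4004, against 2464 and 1753 of all 31191 genes. With pairing 3 were higher (4.66% of all genes) and 4 lower (2.91%), and DESeq2 gave 3 and 3 (2.92% and 2.1%). Without replicate 3 of line 50, 12 were higher and 9 lower, and without replicate 1 or 2 it was 0 in both directions. These counts again have no share of all genes to set beside them. No antioxidant gene with a mean of at least 500 was called higher. Of all 31191 genes tested, whatever their level, 47 (0.151%) had such a mean and were called higher. That share is not the rate among genes of that level. The pairing sets the line 4004 library, numbered 3, against replicate 3 of line 50, and it turned the sign of 11 of the 39 log2 fold changes at day 0 and 17 at day 35. That tie between the lines rests on the shared number and was not tested.

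BrAPX3 encodes an ascorbate peroxidase of the peroxisomal membrane. Its copy Bra013053 had 19, 38 and 56 normalized read counts at day 0 and 42, 57 and 106 at day 35 in line 50, and 1806 (exact Poisson 95% interval 1724 to 1891) and 2389 (2295 to 2485) in line 4004. Both line 4004 libraries stood far above all 6 of line 50. The log2 fold change between the lines was 5.51 ± 0.68 at day 0 (edgeR adjusted p = 0.0173, and 3.13e-09 to 0.163 over the alternatives). At day 35 it was 5.04 ± 0.66 (edgeR adjusted p = 0.0375, and 1.66e-07 to 0.397 over the alternatives). The paired values were 4.80 ± 0.26 at day 0 and 4.33 ± 0.26 at day 35. The day 0 call was lost without replicate 1 (edgeR adjusted p = 0.143) or replicate 2 (0.163) of line 50, at both days or at day 0 alone (0.0877 and 0.109). The day 35 call was lost without replicate 1 (0.248) or 2 (0.397), and without any single line 50 library but replicate 3 of day 35 (0.0561 to 0.197). With only the compared libraries fitted, both the day 0 call (0.0557) and the day 35 call (0.273) were lost. Taking 1 off each count also lost the day 35 call (0.0684).

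The other copy, BrAPX3 Bra017686, had 2276, 2425 and 3842 at day 0 and 2460, 2637 and 2808 at day 35 in line 50. In line 4004 it had 3592 and 2980. The lines overlapped at day 0, in contrast to Bra013053. In raw counts Bra017686 was 26.6 to 118 times Bra013053 in line 50 and 1.99 and 1.25 times in line 4004. Reads of both lines were mapped to 1 reference gene set, and the part of sequence differences between the lines in these values was not tested.

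All 8 catalase genes had a positive log2 fold change for line 4004 against line 50, with medians of 0.70 at day 0 and 0.87 at day 35, against -0.04 and -0.07 over all genes, but with pairing only 6 of 8 at day 0 and 5 of 8 at day 35 were positive. The genes that turned negative with pairing were copies of BrCAT2. The genes are copies of 3 loci, and none passed edgeR's test without pairing. DESeq2 called both BrCAT1 copies at both days. BrCAT1 Bra012239 had 1266, 963 and 1716 at day 0 and 1726, 1567 and 1385 at day 35 in line 50, and 5140 and 6245 in line 4004. The line 4004 libraries were above all those of line 50, with a log2 fold change of 1.89 ± 0.40 at day 0 (edgeR adjusted p = 0.0827, paired 0.0456) and 1.93 ± 0.40 at day 35 (edgeR adjusted p = 0.174, paired 0.089). The second copy, Bra025833, had 562, 377 and 556 and 733, 673 and 494 in line 50, and 1600 and 2018 in line 4004. Its day 0 log2 fold change was 1.62 ± 0.35 (edgeR adjusted p = 0.0883, paired 0.0445). BrCAT3 Bra016459 had 83762 and 93875 in line 4004, above all line 50 libraries, with log2 fold changes of 0.60 ± 0.55 and 0.80 ± 0.54 that did not pass (edgeR adjusted p = 0.739 and 1). Catalases together took 1.17% and 1.15% of all counts in the line 4004 libraries.

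**Figure D5:**
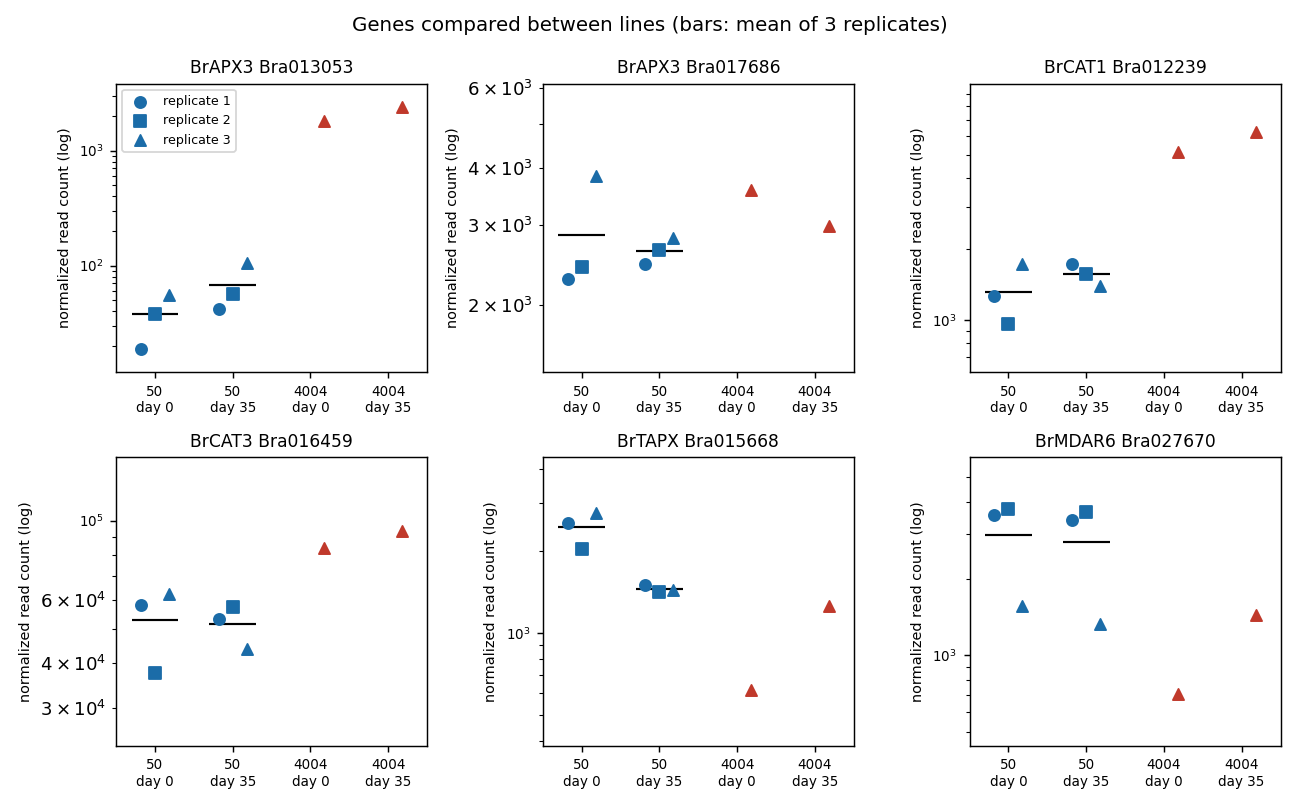
Normalized read counts of both BrAPX3 copies, BrCAT1 Bra012239, BrCAT3 Bra016459, BrTAPX and BrMDAR6 in each library, on a log axis, with line 50 in blue, line 4004 in red and a symbol for each replicate number. Bars are the means of the 3 line 50 replicates. BrAPX3 Bra013053 reaches 1806 and 2389 in line 4004 and at most 106 in line 50, and BrTAPX is lowest in the day 0 library of line 4004, at 614.

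Genes of the ascorbate cycle lay on both sides of line 50 in line 4004 at day 0. Of the 5 dehydroascorbate reductase genes 4 had a positive log2 fold change (median 1.07) and 0 were called. BrDHAR1 Bra025749 had 5077 in line 4004 at day 0 and 5033 at day 35, above all line 50 libraries of each day. Its log2 fold changes were 1.77 ± 0.83 (edgeR adjusted p = 0.429) and 0.95 ± 0.86 (edgeR adjusted p = 1). With pairing these log2 fold changes were 1.03 and -0.026. BrDHAR2 had 471 and 460, also above all line 50 libraries (log2 fold change 1.85 ± 0.81 at day 0, edgeR adjusted p = 0.386, paired log2 fold change 1.07). BrMDAR1, with 3888 and 3634, lay above them too (0.42 ± 0.33 at day 0, edgeR adjusted p = 0.683).

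Other genes of the cycle were lower in line 4004 at day 0. BrTAPX had 614 there, below the 2031 to 2765 of line 50 (log2 fold change -2.05 ± 0.39, edgeR adjusted p = 0.0639, paired -2.24 with adjusted p = 0.0197, DESeq2 adjusted p = 3.45e-05). BrMDAR6 had 707 in line 4004 and 3558, 3732 and 1565 in line 50 (-2.09 ± 0.71, edgeR adjusted p = 0.26, paired -1.25 with adjusted p = 0.0431, DESeq2 adjusted p = 0.0401). Replicate 3 of line 50, which bears the same number as the line 4004 library, was the lowest of the line 50 values. BrAPX4 (4744 against 8456 to 10723) and BrMDAR4 Bra025303 (833 against 1497 to 2103) passed with pairing (edgeR adjusted p = 0.0444 and 0.0309) and in no other alternative. Both BrGR2 copies were below all line 50 libraries at day 0, Bra007087 with 1437 and Bra014801 with 663, and neither passed (edgeR adjusted p = 0.215 and 0.391), though DESeq2 called Bra007087 (adjusted p = 0.0203).

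At day 35, 1 of the 39 genes, the BrAPX3 copy above, was higher in line 4004 and 0 were lower, against 0.353% and 0.093% of all genes. Unadjusted, edgeR gave 3 higher and 0 lower, against 1003 and 984 of all 31191 genes. With pairing 1 was higher and 0 lower (0.494% and 0.458% of all genes), and DESeq2 gave 3 and 0 (0.606% and 0.782%). Without replicate 3 of line 50, 7 were higher and 1 lower, with no share of all genes to set beside them. At that day 19 of the 39 genes (48.7%, against 26.2% of all genes) were above every line 50 library, and at day 0 the count was 16 (41%, against 33%). The counts below every line 50 library were 10 at day 0 (25.6%, against 22.8%) and 4 at day 35 (10.3%, against 16%). At both days 13 genes (33.3%, against 17.6%) were above all line 50 libraries of the day, among them 6 of the catalase genes. At both days 4 genes were below (10.3%, against 9.42%): BrAPX4, BrTAPX, BrMDAR4 Bra025303 and BrGR2 Bra007087.

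Other genes related to these enzymes were read from lists by Arabidopsis locus. Of 12 tested ascorbate synthesis genes 1 fell in line 50 (1.69% of all genes did) and 5 fell with pairing (7.69%). Their median log2 fold change was -0.68, against 0.01 over all genes. The gene that fell was a gene of the mannose pathway enzyme BrVTC1, Bra017052, with 2438, 2527 and 4528 normalized read counts at day 0 and 760, 726 and 983 at day 35 (-1.94 ± 0.38, edgeR adjusted p = 0.0427, and 0.000185 to 0.428 over the alternatives, the highest without replicate 2). The days did not overlap, and line 4004 had 3673 and 904. This BrVTC1 call was lost with 1 taken off each count (edgeR adjusted p = 0.0502) and without replicate 1 (0.422) or 2. Leaving out replicate 1 or 2 of either day alone also lost it (0.119 to 0.178). The 4 other genes that fell with pairing were copies of BrVTC1 and of the epimerase gene BrGME, Bra010011 for example with 6928, 8492 and 9248 against 3361, 3176 and 4292. Of the 12 genes, 8 had a negative and 4 a positive log2 fold change. BrVTC2 Bra010424 lay higher at day 35, with 3285, 3312 and 4898 against 5309, 5560 and 8367. A list of 21 tested copper genes held transporters, chaperones, the regulator SPL7 and copper proteins such as laccases and plastocyanins. Of these, 1 rose in line 50 (2.23% of all genes did), and with pairing 3 rose and 1 fell (7.94% and 7.69%). The 1 gene was the laccase BrLAC12 Bra028760, with 1, 1 and 2 normalized read counts at day 0 and 13, 9 and 6 at day 35 (edgeR adjusted p = 0.0258). Its day 0 levels lie near the lowest count of 1, which was read as no reads. The BrLAC12 call was lost with 1 taken off each count (edgeR adjusted p = 0.0568), and without replicate 2 (0.453). It was also lost without replicate 1 or 2 of day 0 alone (0.147 and 0.152) or replicate 2 of day 35 alone (0.1). The gene has no value without replicate 1, without replicate 1 of day 35, or with only the compared libraries fitted.

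BrMDAR2 (Bra005775), a monodehydroascorbate reductase gene outside the annotation rule, had 637, 683 and 789 in line 50 at day 0 and 2842 in line 4004. At day 35 it had 794, 752 and 504 in line 50 and 1720 in line 4004. It was higher in line 4004 at day 0 (log2 fold change 1.95 ± 0.32, edgeR adjusted p = 0.0403). The call was lost without replicate 1 (0.491) or 2 (0.499), with counts less 1 (0.0556) and with only the compared libraries fitted (0.106). It was lost as well without replicate 1 or 2 of line 50 at either day alone (0.102 to 0.201). Bra001293, the other BrMDAR2 copy, had low levels, 24, 9 and 6 at day 0 and 2, 4 and 2 at day 35 in line 50. Line 4004 had 7 and 3. Between the lines at day 0, 1 copy had a positive and 1 a negative log2 fold change. With pairing, 1 of the 2 fell across vernalization in line 50 (7.69% of all genes did). In line 50, edgeR called 0 of 20 photorespiration genes, 11 peroxiredoxins, 8 glutathione peroxidase-like genes, 5 NADPH oxidases and 4 glutathione synthesis genes across vernalization. Of all genes 2.23% rose and 1.69% fell. With pairing, 1 peroxiredoxin rose (7.94% of all genes did).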

How the data were processed

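Reads had been trimmed by the authors with SolexaQA, then mapped with Bowtie2 to Brassica rapa gene sequences and counted. The sources used here do not give the counting program or what it did with reads matching more than 1 gene. The deposited raw counts were used unchanged. Their lowest value was 1 in every library, held by 676 genes in all 8, so 1 was read as no reads. Levels are the authors' deposited normalized values (a score: raw count over a DESeq size factor, rounded), which the authors scaled together with further libraries not analysed here. Gene names come from the deposited annotation, and no gene could be tied to coordinates or sequences at hand. The authors' 4 columns of log2 ratios were not used.

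Tests used the quasi-likelihood F test of edgeR 4.0.16 (R 4.3.3) after TMM scaling and filterByExpr, in a single model of 8 libraries with 4 group coefficients. The SE given for an edgeR log2 fold change was back-calculated, as its size over the square root of its F statistic. All 4 residual degrees of freedom lie in line 50, whose spread was also applied to the unreplicated line 4004. Nothing in the labels says how far the pooled replicates were raised separately, so p-values cover the spread between these samples. Same-numbered line 50 libraries deviated together from their group means (correlations 0.446, 0.615 and 0.695), so numbers were taken as pairs. Replicates 1 and 2 were as close across numbers (0.473 and 0.563), so the check separates replicate 3 from them but not 1 from 2. These correlations cover line 50 only, and whether number 3 of line 4004 belongs with replicate 3 was not tested. Over all genes tested, log2 levels in line 4004 correlated at 0.8814, 0.8903 and 0.9252 with line 50 replicates 1, 2 and 3 at day 0. At day 35 the values were 0.9315, 0.934 and 0.9271. The replicate block (2 residual degrees of freedom) is given where it changes a call. Alternatives were RLE scaling, no filter, counts less 1, the compared libraries alone, leaving out replicates, and DESeq2 1.42.0. The code was checked on simulated data. Intervals on single libraries cover counting error only. Genes were named if called in any comparison, also with the block, if highest in count or most changed in their class, if 2-fold apart in line 4004, or if called in another list. BrSAPX, BrAPX1, BrFSD3, BrMSD1, BrCSD2 Bra011971, BrAPX3 Bra017686, BrGME, BrVTC2 Bra010424 and BrMDAR2 Bra001293 were added as examples after their values were seen. Members and lists were chosen with earlier results of these data known.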

Additional observations from a re-analysis of the deposited data

How the results depend on the processing

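Treating replicate numbers as pairs (the replicate block) gave 1 antioxidant gene higher and 4 lower across vernalization in line 50, and 3 higher and 4 lower in line 4004 at day 0. DESeq2 gave 1 and 4 in line 50, 3 and 3 between lines at day 0, and 3 higher at day 35. Fitting only the compared libraries left 0 higher at day 0 and 0 at day 35, taking 1 off each count left 0 higher at day 35, and a mean of at least 500 left 0 higher at day 0. In line 4004, library totals gave 0 genes 2-fold higher and 2 lower. Leaving out line 50 libraries, the counts ran from 0 to 2 higher and 0 to 3 lower across vernalization, from 0 to 12 and 0 to 9 between lines at day 0, from 0 to 7 and 0 to 1 at day 35, and from 0 to 2 in each direction for the difference of responses. The highest counts came without replicate 3 and the lowest without replicate 1 or 2. Shares of all genes called in these fits are not given, so the counts cannot be read as particular to the antioxidant genes. The cause was not tested, and each removal also takes residual degrees of freedom, of which there are 4.

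No called log2 fold change changed sign. Over the 39 genes the block turned 5 across vernalization in line 50, 11 and 17 between lines at day 0 and day 35, and 2 in the difference of responses, and leaving out libraries turned 19, 3, 5 and 19. Values follow for the genes named in the text. The block turned BrCAT3 Bra016459 (0.0013), BrMSD1 Bra034154 (0.0074) and BrAPX1 Bra018677 (0.10) in line 50. At day 0 it turned BrFSD3 Bra009670 (0.20), BrMSD1 Bra034154 (-0.55), BrAPX1 Bra018677 (-0.10), BrAPX3 Bra017686 (-0.085) and BrDHAR3 Bra020633 (-0.61). At day 35 it turned these to 0.36, -0.68, -0.39, -0.31 and -0.54, and BrCAT2 Bra034674 (-0.22), BrSAPX (0.13), BrDHAR1 Bra025749 (-0.026) and BrGR2 Bra014801 (0.0058). In the difference of responses it turned BrCAT1 Bra012239 (-0.027). BrMSD1 Bra034154 in line 50 became 0.0089 with RLE scaling, 0.0090 with DESeq2 and 0.021 with the compared libraries, BrAPX1 Bra018677 there 0.014 with the compared libraries, BrSAPX at day 35 0.031 with no filter, and BrDHAR3 Bra020633 in the difference -0.0014 with RLE scaling and DESeq2. Leaving out libraries, signs turned in line 50 for BrFSD3 Bra009670 (-0.59 to 0.067), BrMSD1 Bra034154 (-0.49 to 0.55), BrCAT2 Bra034674 (-0.66 to 0.13), BrCAT3 Bra016459 (-0.31 to 0.22), BrAPX1 Bra018677 (-0.33 to 0.47), BrAPX3 Bra017686 (-0.28 to 0.24), BrMDAR6 (-0.34 to 0.25), BrDHAR3 Bra020633 (-0.028 to 0.78), BrGR2 Bra007087 (-0.18 to 0.027) and Bra014801 (-0.29 to 0.21). Between lines they turned at day 0 for BrMSD1 Bra034154 (-0.091 to 0.69) and BrDHAR3 Bra020633 (-0.13 to 0.33), and at day 35 for the same genes (-0.19 to 0.54 and -0.20 to 0.54), BrSAPX (-0.090 to 0.049) and BrDHAR3 Bra023579 (-0.17 to 0.014). In the difference of responses they turned for BrFSD3 Bra009670 (-0.065 to 0.59), BrMSD1 Bra034154 (-0.66 to 0.39), BrCAT1 Bra012239 (-0.31 to 0.24) and Bra025833 (-0.27 to 0.19), BrCAT2 Bra034674 (-0.72 to 0.045), BrCAT3 Bra016459 (-0.063 to 0.47), BrAPX1 Bra018677 (-0.64 to 0.15), BrAPX3 Bra013053 (-0.89 to 0.028) and BrDHAR3 Bra020633 (-0.30 to 0.52).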
